A study of Mus musculus with 10 samples.

Results

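The network-forming, beaded and other nonfibrillar collagens described here were 9 genes: Col4a1, Col4a2, Col4a5, Col6a1, Col6a2, Col6a3, Col12a1, Col18a1 and Col28a1. They were found as the rows of a count table of 60676 genes and loci whose Ensembl identifiers map to those symbols, and all 9 were present. They are part of 33 nonfibrillar and 44 collagen genes matched by symbol. The 9 were selected on their transcript levels in these 10 libraries, compared over the groups and the lines, with earlier results in view and with no threshold stated. Their levels and calls are therefore given as descriptions, and nothing is read from how many of them passed a test.

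The libraries were made from 2 cultured mouse tumour lines, MC38 (colon adenocarcinoma) and B16 (melanoma). Cells of all 10 libraries carried a knockdown of Sdc1, which encodes the heparan sulphate proteoglycan syndecan-1, and had been exposed for 24 h to 10 ng/ml of the cytokine interferon gamma (IFNγ). In MC38, 3 groups had 2 libraries each: no re-expression, re-expression of a mutant Sdc1 named c30, and re-expression of a mutant named ect. In B16, 2 groups had 2 libraries each: no re-expression and re-expression of wild-type Sdc1. The groups with no re-expression are called the knockdown. The labels describe neither mutant further and do not name the knockdown clones or the promoters used. Untreated cells, cells with normal Sdc1 and empty-vector controls were not analysed here.

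Collagens are proteins of 3 chains wound into a triple helix. Fibrillar collagens form the rope-like fibrils of connective tissue. Collagen IV forms the flexible network of basement membranes, and its α1 and α2 chains make up the most widespread form. Collagen VI is assembled from α1, α2 and α3 chains into beaded microfilaments around cells, and cells of mesenchymal type are its usual source. Collagen XII sits on the surface of fibrils, collagen XVIII is a basement membrane proteoglycan that carries heparan sulphate and releases endostatin, and collagen XXVIII is a relative of collagen VI known from peripheral nerve. Tumour cells can make such collagens themselves, and syndecan-1 binds several collagens through its heparan sulphate chains.

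Library depth ranged from 11349447 to 15041133 counts, so that 3 counts, the limit that a count of 0 allows, stood for 0.199 to 0.264 counts per 1000000 of a library's total (CPM). Intervals and such limits cover counting error only. Sdc1 itself was at 24.5 and 30 CPM in the MC38 knockdown, 97.0 and 99.5 CPM with c30 and 22.4 and 25.2 CPM in the libraries labelled ect, which did not lie above the knockdown (edgeR adjusted p = 0.325). In B16 it was at 40.7 and 43.1 CPM in the knockdown and 71.1 and 56.9 CPM with wild-type Sdc1 (edgeR adjusted p = 0.269), and a count per gene does not separate the cell's own transcript from a re-expressed one. Replicates of a group differed by more than sampling noise, most in B16 wild type (chi-square of 20 per gene, against 3.79 to 6.27 in the other groups), and leaving out either of those libraries is given with the B16 results. The 6 melanocyte markers summed to 13101 to 13890.2 CPM in B16 and 6.33 to 12.8 CPM in MC38, highest in c30 replicate 2. Each MC38 library had 1 or 2 of 7 epithelial markers at 1 CPM or more, where Epcam stayed at or below 0.527 CPM and Cdh1 was at 5.53 to 13.9 CPM. No label tells whether the paired libraries of a group were grown as separate cultures, so the spread behind each p-value may be only technical.

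Among the members, the collagen VI chains had the largest edgeR fold changes between the lines. Within MC38, Col6a1 and Col6a2 had the smallest edgeR adjusted p of the members. The fibrillar collagens Col3a1 and Col1a2 differed more there (log2 fold change -0.74 and -0.69 with c30, against -0.30 and -0.36 for Col6a1 and Col6a2). Col6a1 and Col6a2 are neighbours on chromosome 10 with no protein-coding gene between them in RefSeq (GRCm38.p6). Col18a1, which differed in the opposite direction within MC38, lies on the same chromosome, with Pcbp3 and Slc19a1 between it and Col6a1. The bases before the start sites of these 3 genes are shown for that reason, from the RefSeq promoter table, 5′ to 3′ on the gene's strand. The parts annotated as exon were left out, 124 bases for Col6a1 and 18 for Col18a1. Capitals mark a GC box, searched as GGGCGG on both strands.
Col6a1 (chr10:76726169-76726294, minus strand, 126 bases): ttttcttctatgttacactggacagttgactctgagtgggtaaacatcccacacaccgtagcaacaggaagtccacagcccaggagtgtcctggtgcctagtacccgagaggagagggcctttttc
Col6a2 (chr10:76623631-76623880, minus strand, 250 bases): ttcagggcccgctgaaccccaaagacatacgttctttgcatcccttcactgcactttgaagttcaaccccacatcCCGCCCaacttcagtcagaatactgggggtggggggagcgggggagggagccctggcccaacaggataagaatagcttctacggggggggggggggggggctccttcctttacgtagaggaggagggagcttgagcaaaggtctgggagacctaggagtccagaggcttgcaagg
Col18a1 (chr10:77166549-77166780, minus strand, 232 bases): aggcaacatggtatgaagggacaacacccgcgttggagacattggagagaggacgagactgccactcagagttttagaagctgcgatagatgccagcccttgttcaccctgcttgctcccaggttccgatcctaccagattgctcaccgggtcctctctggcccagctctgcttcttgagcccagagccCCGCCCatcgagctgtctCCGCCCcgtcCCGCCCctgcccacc
The Col18a1 stretch held 3 GC boxes, at 61, 43 and 33 bases before the start, the Col6a2 stretch held 1 at 175 bases, and the Col6a1 stretch held none. Before the other members' starts, Col4a2 held 2 GC boxes (at 192 and 48 bases) and Col4a5 held 1 (at 30 bases). Col4a1, Col6a3 and Col28a1 held none. A GC box occurred in 33.0% of 32536 windows of 250 bases before RefSeq starts. No TATA box (TATAAA, in 12.3% of windows) was found in the 250 bases before any of the 8 members in the table, and Col12a1 had no entry. An AP-1 element (TGANTCA, in 6.73% of windows) was found in Col6a1 only, 90 bases before its start in the part not shown. An interferon-type GAS element (TTCNNNGAA, in 7.04% of windows) was found in Col28a1 only, 104 bases before its start. A CCAAT box (CCAAT, in 33.8% of windows) was found in Col4a1, Col4a2, Col4a5 and Col18a1, and an E-box (CANNTG, in 66.2% of windows) in Col4a5, Col6a1 and Col28a1. These matches describe letters in a window and not binding.

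Col4a1 and Col4a2 are also neighbours, on chromosome 8, and are transcribed away from each other from starts so close that their annotated exons share 22 bases on opposite strands. How the counting treated strand is unknown here, so reads from those bases cannot be assigned, although the bases are few beside the transcripts of 6.62 and 6.45 kb. Col4a2 also shares 43 exon bases with the antisense gene Gm15419, which had at most 13 counts in a library.

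The beaded collagen VI chains were among the abundant collagen transcripts of MC38 and nearly absent from B16. Col6a1, the α1 chain, was at 472 and 529 CPM in the MC38 knockdown, 412 and 399 CPM with c30 and 386 and 394 CPM in the ect libraries, against 9.47 and 7.66 CPM in the B16 knockdown and 4.43 and 4.31 CPM in B16 wild type. The 2 knockdown libraries were the highest in each line, and no library of one line overlapped the other line. Of all genes tested, 47.8% did not overlap between c30 and knockdown, 48.4% between ect and knockdown and 35.1% between the B16 groups. Between the 2 knockdown groups, 84.4% did not overlap. These shares, in either direction, stand beside each statement of overlap below.

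Col6a2, the α2 chain, was at 262 and 282 CPM in the MC38 knockdown, 215 and 208 CPM with c30 and 211 and 218 CPM in the ect libraries. Its B16 libraries held 3, 1, 2 and 1 counts, or 0.0798 to 0.229 CPM. In B16 the level was thus at or under the limit that a count of 0 allows, and no change within that line was detectable at this depth. Col6a3, the long α3 chain whose C-terminal fragment is known as endotrophin, was at 953 and 1069 CPM in the MC38 knockdown, 898 and 926 CPM with c30 and 906 and 891 CPM in the ect libraries. In B16 it was at 1.68 and 0.87 CPM in the knockdown and 0.792 and 0.718 CPM in wild type, from 9 to 22 counts a library. Knockdown and re-expression libraries did not overlap for Col6a3 in either line.

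Of the network chains, Col4a1 and Col4a2 were abundant in both lines. Col4a1, the α1 chain, was at 211 and 231 CPM in the MC38 knockdown, 222 and 235 CPM with c30, 211 and 208 CPM in the ect libraries, 91.2 and 92.1 CPM in the B16 knockdown and 82.7 and 79.9 CPM in B16 wild type. The MC38 groups were close, with c30 overlapping the knockdown. Col4a2, the α2 chain, was at 245 and 271 CPM, 240.2 and 253 CPM and 233 and 251 CPM in the same MC38 groups, and at 52.5 and 54.5 CPM and 47.6 and 45.7 CPM in B16. For both genes the 2 B16 wild-type libraries lay just below the 2 knockdown libraries.

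Col4a5, the X-linked α5 chain of collagen IV that is mutated in Alport syndrome, had the reverse distribution between the lines. It was at 100.3 and 98.9 CPM in the B16 knockdown and 82.5 and 89.3 CPM in B16 wild type, against 17.4 and 20.3 CPM in the MC38 knockdown, 14.5 and 9.66 CPM with c30 and 13.4 and 13.0 CPM in the ect libraries. Both knockdown groups lay above the re-expression groups of their line without overlap. Among all genes tested, 47.8% (c30), 48.4% (ect) and 35.1% (B16 wild type) did not overlap the knockdown in either direction. Col4a5 lies beside Col4a6 on chromosome X, and the chains that join α5 in basement membranes were scarce: Col4a6 reached at most 0.305 CPM, Col4a3 at most 0.603 CPM and Col4a4 at most 2.24 CPM in any library.

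The 3 remaining members each belong to another collagen class. Col18a1 was at 42.0 and 43.4 CPM in the MC38 knockdown, 51.6 and 53.2 CPM with c30 and 54.6 and 55.9 CPM in the ect libraries, and at 2.90 and 3.74 CPM in the B16 knockdown and 1.9 and 2 CPM in B16 wild type. It was lowest in the knockdown in MC38 and highest in the knockdown in B16. Col28a1 was at 74.5 and 69.9 CPM in the B16 knockdown and 44.3 and 47.3 CPM in B16 wild type. In MC38 it was between 2.26 and 3.79 CPM, where c30 overlapped both other groups. Both ect libraries (2.64 and 2.39 CPM) lay below both knockdown libraries (2.83 and 3.47 CPM). Col12a1 was at 8.55 and 6.09 CPM in the B16 knockdown and 4.99 and 5.59 CPM in B16 wild type. In MC38 it had 3 to 10 counts a library (0.261 to 0.754 CPM) and was not tested there because of its low counts.

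**Figure D1:**
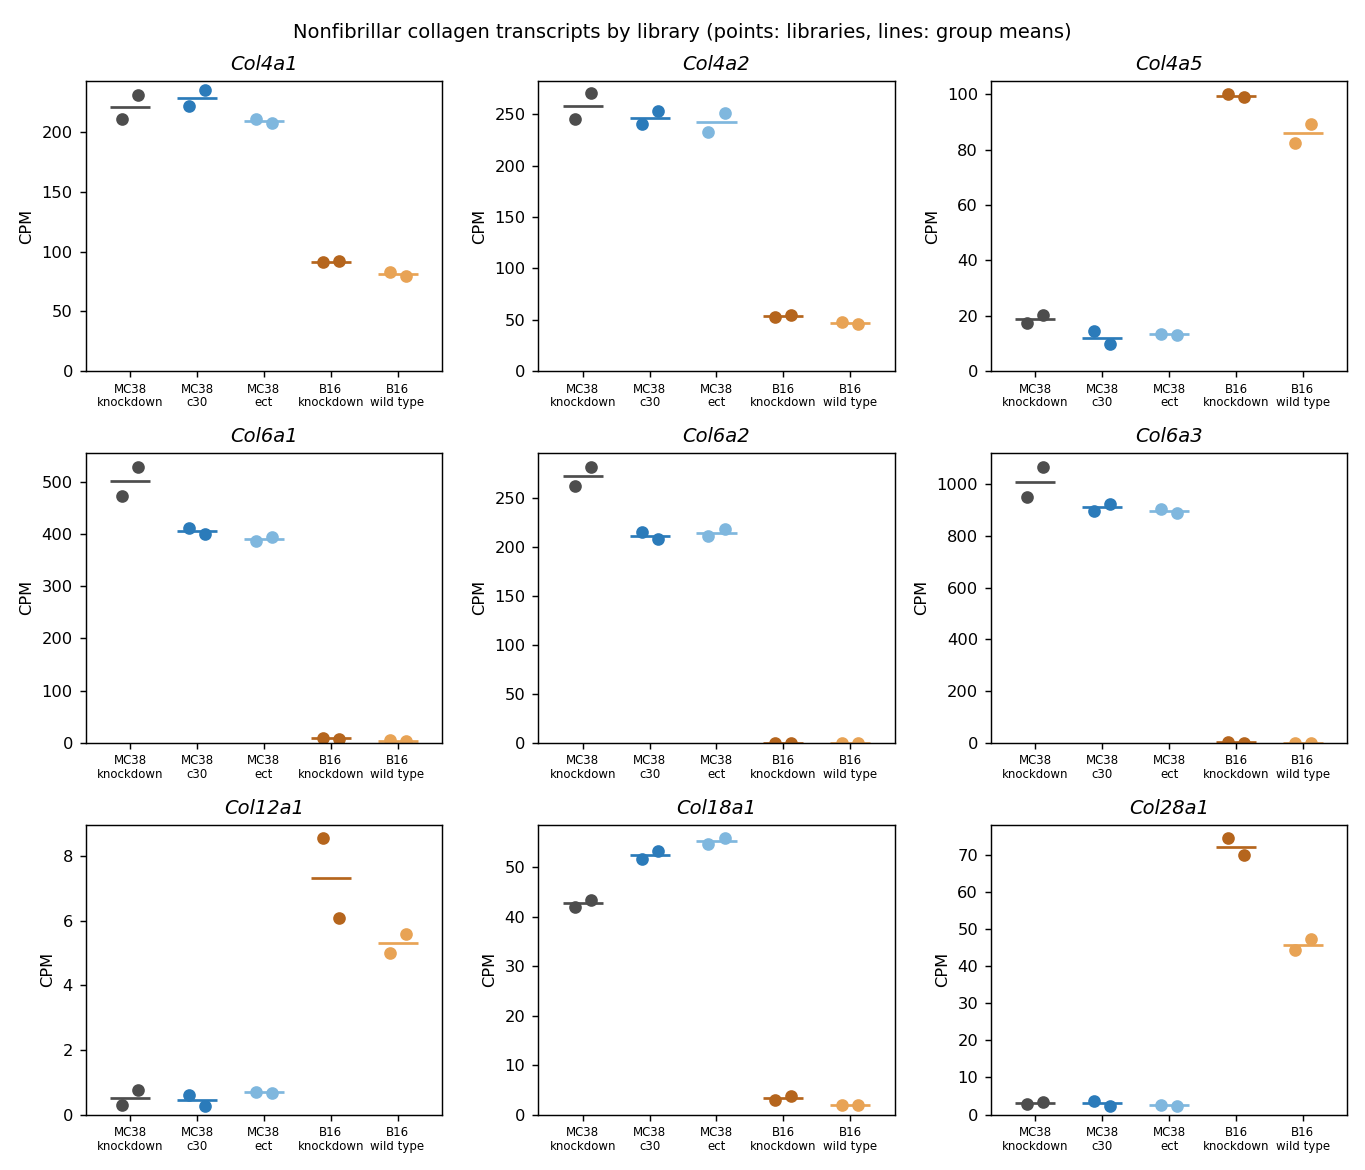
Transcript level of each of the 9 collagen genes in CPM of the library total (vertical axis, linear from 0, a separate scale per gene) in the 5 groups (horizontal axis). Points are libraries and lines are means of 2. Col6a1, Col6a2, Col6a3 and Col18a1 are near 0 in B16, and Col4a5, Col12a1 and Col28a1 are higher in B16 than in any MC38 library.

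Per kilobase of the longest protein-coding transcript in GENCODE M21, the leading member in the MC38 knockdown was Col6a1 at 122 CPM per kb (SD 9.81, n = 2), followed by Col6a3 at 100.1 (SD 8.10, n = 2), Col6a2 at 58.5 (SD 3.09, n = 2), Col4a2 at 40.0 (SD 2.78, n = 2) and Col4a1 at 33.4 (SD 2.14, n = 2). Col18a1 (7.63), Col4a5 (2.89), Col28a1 (0.744) and Col12a1 (0.0453) followed at a distance. In the B16 knockdown the order began with Col28a1 at 17.1 CPM per kb (SD 0.763, n = 2), Col4a5 at 15.2 (SD 0.151, n = 2), Col4a1 at 13.9 (SD 0.0966, n = 2) and Col4a2 at 8.29 (SD 0.222, n = 2). Col6a1 (2.09), Col12a1 (0.636), Col18a1 (0.594), Col6a3 (0.126) and Col6a2 (0.034) made up the rest, and Col12a1 and Col18a1 did not differ beyond their SD of 0.151 and 0.106. The transcript in use in these cells was not determined, so the lengths are those of the annotation.

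The sum over the 9 genes was 2018 to 2449.9 CPM in MC38 and 269 to 341 CPM in B16. Collagen VI chains made up 73.5% to 76.7% of it in MC38 and 1.86% to 3.33% in B16. Collagen IV chains made up 21.3% to 23.9% in MC38 and 71.5% to 79.0% in B16. Of the counts of these 9 genes, most were thus from beaded collagen in MC38 and from network collagen in B16. The 9 genes made up 63.0% to 66.7% of all collagen counts in MC38 and 55.4% to 57.1% in B16. The shares above are therefore not shares of all collagen transcripts.

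The comparison of the 2 knockdown groups asked how the lines differed under the same knockdown and IFNγ. It carries every difference between the lines, including how they were made and handled, and in bulk RNA fewer cells of a type and less RNA per cell cannot be told apart. All 9 genes passed the edgeR test, 3 higher and 6 lower in B16, where 68.2% of 16877 genes tested passed (33.8% higher and 34.3% lower). By summed counts the level in MC38 over that in B16 was 58.0 for Col6a1 (95% exact interval 50.6 to 66.7), 776 for Col6a3 (549.6 to 1135) and 1671 for Col6a2 (652 to 6134, from 7353 counts against 4). For Col18a1 it was 13.0 (10.3 to 16.4), for Col4a2 4.82 (4.55 to 5.12) and for Col4a1 2.41 (2.30 to 2.53). The level in B16 over that in MC38 was 23.0 for Col28a1 (18.5 to 29.0), 14.3 for Col12a1 (8.31 to 26.7, from 182 counts against 14) and 5.28 for Col4a5 (4.80 to 5.82). The edgeR log2 fold changes for B16 against MC38 ran from -10.67 (SE 0.17) for Col6a2 to 4.56 (SE 0.16) for Col28a1, with adjusted p = 1.36e-27 and 7.52e-20, and the nearest to 0 was that of Col4a1 at -1.23 (SE 0.07, edgeR adjusted p = 6.37e-15).

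**Figure D2:**
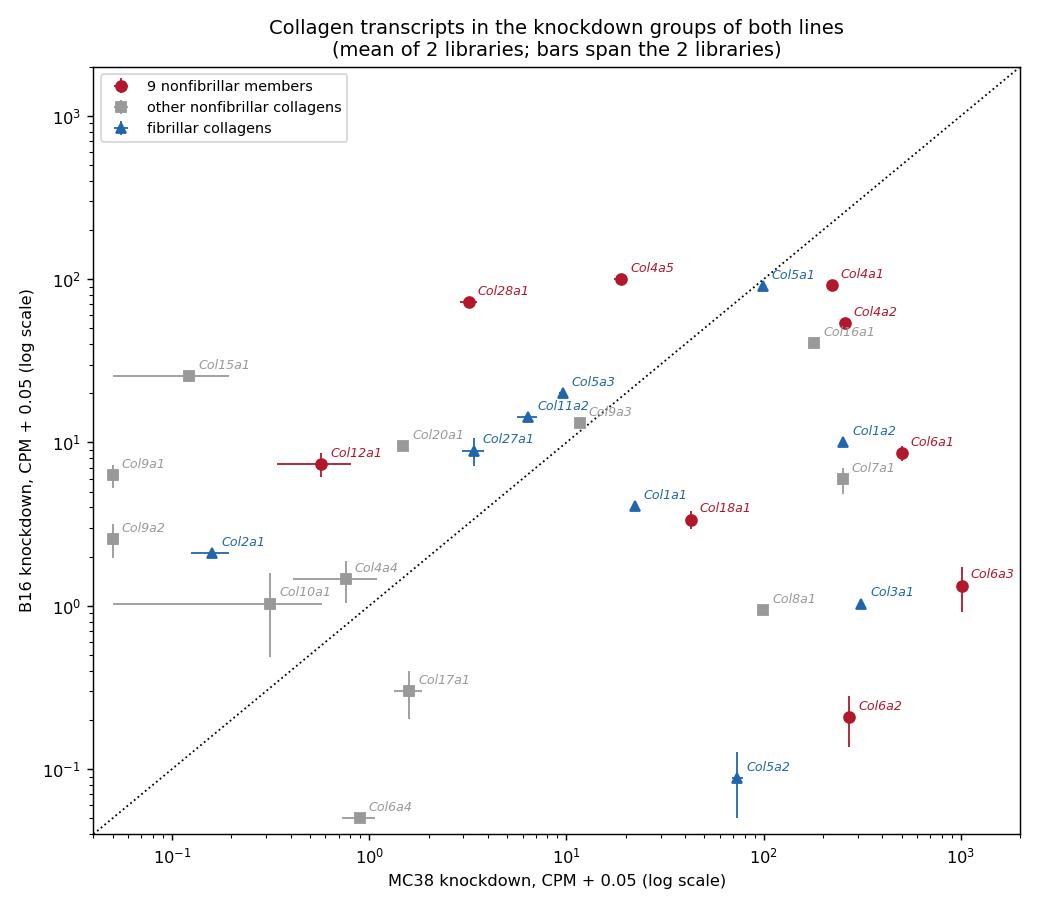
Level in the MC38 knockdown (horizontal axis) against the B16 knockdown (vertical axis) for collagen genes that reached 1 CPM in at least 1 of these libraries, as CPM + 0.05 on log scales; points are means of 2 libraries, bars span the 2 libraries and the dotted line marks equal levels. Col6a1, Col6a2 and Col6a3 lie far to the right, while Col4a5, Col12a1 and Col28a1 lie above the line.

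Other nonfibrillar collagens were also split between the lines: of 24 in the list, 11 were tested. By edgeR 5 were higher in B16 and 4 lower, where 68.2% of all genes tested passed. Col8a1, a short-chain network collagen, and Col7a1, the anchoring fibril collagen, were 111-fold (95% exact interval 73.4 to 178) and 43.3-fold (36.7 to 51.5) higher in MC38 by summed counts. Col16a1 and Col17a1, a transmembrane collagen of hemidesmosomes, were also lower in B16, with edgeR log2 fold changes of -2.10 (adjusted p = 1.76e-19) and -2.62 (adjusted p = 0.000782). In B16, Col15a1, the nearest relative of Col18a1, was 345-fold higher (95.1 to 2854, from 627 counts against 2). Col9a1 and Col9a2, chains of the cartilage collagen IX, had no count in the MC38 knockdown and were at least 56.8-fold and 22.4-fold higher in B16, against 3 counts over the group. Col20a1 was also higher in B16 by edgeR (log2 fold change 2.75, adjusted p = 3.23e-09). The Col10a1 value of 1.99 (edgeR adjusted p = 0.0457) lost its call in 7 of 15 alternatives. It was 0.77 (adjusted p = 0.624) without B16 knockdown replicate 1 and 0.96 (0.373) without MC38 knockdown replicate 1, within a range of 0.77 to 6.69 when 1 library was left out. By edgeR Col9a3 (0.22, adjusted p = 0.263) and Col4a4 (1.03, adjusted p = 0.114) did not pass. Col18a1 and Col15a1 were thus unequal in opposite directions.

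Genes that act on or with these collagens were compared as well, where 68.2% of all 16877 genes tested passed. Of 19 basement membrane genes tested, 6 were higher and 10 lower in B16. Pxdn, the peroxidasin that cross-links collagen IV, had a log2 fold change of -9.73 (SE 0.18), the fibulin gene Fbln2 one of -10.31 (SE 0.17) and the laminin chain gene Lamb1 one of -4.99 (SE 0.10), whereas the laminin chain gene Lama4 had one of 8.46 (SE 0.19). All of these passed the edgeR test (largest adjusted p = 4.11e-24, for Lama4).

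The next lists also stand beside 68.2% of all genes tested that passed. Of 30 collagen biosynthesis genes tested, 11 were higher and 13 lower in B16. The collagen chaperone gene Fkbp10 (-7.97), the cross-linking enzyme gene Loxl4 (-6.46), the procollagen processing enhancer gene Pcolce2 (-7.41) and P3h4 (-10.22) were all lower in B16 by edgeR (adjusted p from 1.7e-25 to 2.63e-20). Of 10 collagen receptor genes tested, 5 were higher and 3 lower. Cspg4, a proteoglycan that binds collagen VI, was lower (-5.15, SE 0.12, edgeR adjusted p = 8.85e-23). Itga1, the α1 integrin subunit of a collagen IV receptor, was higher (4.46, SE 0.26, edgeR adjusted p = 1.23e-14), as were the collagen receptor genes Ddr1 (1.30) and Antxr1 (1.60). Of 9 fibrillar collagens tested, 4 were higher and 4 lower, and the 4 with the smallest edgeR adjusted p were all lower in B16: Col3a1 (-8.28), Col1a2 (-4.62), Col5a2 (-10.78) and Col1a1 (-2.42).

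All 4 stromal markers tested were lower in B16 by edgeR, where 34.3% of all genes tested were lower. The 7 markers of the list summed to 100.3 to 151 CPM in MC38, with 4 of 7 at 1 CPM in each library. In B16 they summed to 11.5 to 13.9 CPM, with 2 or 3 of 7. Pdgfra and Pdgfrb supplied most of the sum in MC38, where Thy1 stayed at or below 0.145 CPM and Lum at or below 0.133 CPM. The 6 endothelial markers summed to 4.88 to 6.68 CPM in MC38 and 0.718 to 1.57 CPM in B16, and the 6 leukocyte markers to 1.52 to 2.99 CPM and 3.32 to 4.61 CPM. The part of these markers in the collagen differences was not tested.

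The ratio of chains within a library does not depend on how libraries are scaled. The counts of Col4a1 over those of Col4a2 were 0.832 to 0.928 in the 6 MC38 libraries and 1.69 to 1.75 in the 4 B16 libraries, so which of the paired chains had more counts differed by line. The ratio of Col4a5 to Col4a1 was 0.0411 to 0.088 in MC38 and 0.997 to 1.12 in B16. The ratio of Col6a2 to Col6a1 was 0.52 to 0.555 in MC38, and in B16 it was 0.0114 to 0.0357 from 1 to 3 Col6a2 counts a library.

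The ratio of Col6a3 to Col6a1 was 2.02 and 2.02 in the MC38 knockdown, 2.18 and 2.32 with c30 and 2.35 and 2.26 in the ect libraries. Both knockdown libraries lay below the 4 others, and their 95% exact intervals (1.96 to 2.08 in each) did not reach those of the other libraries (lowest bound 2.11). In B16 the same ratio was 0.114 to 0.179. These ratios are given as a description, and no test of them was made.

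**Figure D3:**
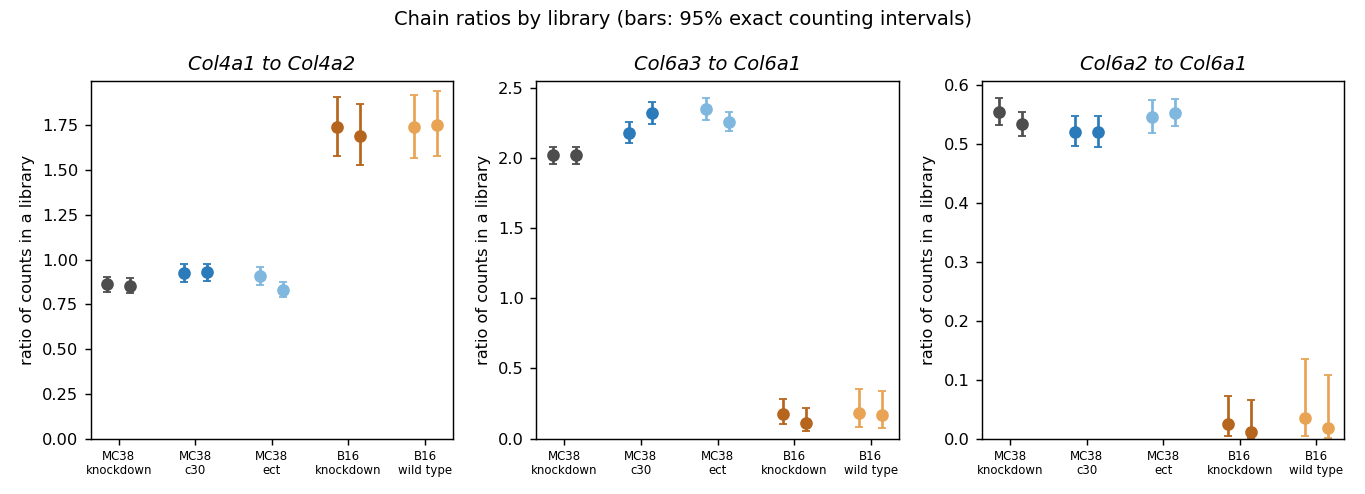
Ratio of the counts of a pair of chains in each library (vertical axis, linear from 0) in the 5 groups (horizontal axis), for Col4a1 to Col4a2, Col6a3 to Col6a1 and Col6a2 to Col6a1. Points are libraries and bars are 95% exact intervals from the counts; Col4a1 to Col4a2 is below 1 in MC38 and above 1 in B16, and Col6a3 to Col6a1 is lowest among MC38 libraries in the knockdown.

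Setting c30 against the knockdown addressed what differed in MC38 once this mutant was present. Col6a1, Col6a2, Col6a3 and Col4a5 were lower and Col18a1 was higher, and Col4a1, Col4a2 and Col28a1 did not pass. Thus 5 of 8 members tested were called, 1 higher and 4 lower, where 7.75% of 15031 genes tested were called (3.30% higher and 4.45% lower). Their median log2 fold change was -0.10, beside 0 over all genes tested. The log2 fold change was -0.30 for Col6a1 (SE 0.045, edgeR adjusted p = 7.17e-07), -0.36 for Col6a2 (SE 0.049, 4.75e-08) and -0.14 for Col6a3 (SE 0.041, 0.0164). In linear terms the knockdown was 1.23-fold, 1.28-fold and 1.11-fold above c30.

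Col4a5 had the largest difference with c30, -0.64 (SE 0.15, edgeR adjusted p = 0.00181). It rested on c30 replicate 2, without which it was -0.40 (adjusted p = 0.24), and the call was also lost without knockdown replicate 2 (-0.53, adjusted p = 0.0661). Col18a1 was 1.23-fold higher (0.30, SE 0.084, edgeR adjusted p = 0.0128). The edgeR values for Col4a1 (0.05, adjusted p = 0.642), Col4a2 (-0.06, 0.58) and Col28a1 (-0.05, 0.957) did not pass. They were of the order of their SE for Col4a1 (0.051) and Col4a2 (0.05) and small beside it for Col28a1 (0.32). The Col6a3 and Col18a1 calls were lost with DESeq2 (adjusted p = 0.0712 and 0.0745), with all 10 libraries in 1 fit (0.393 and 0.171) and when either c30 library was left out, that of Col6a3 also without knockdown replicate 2 (0.431) and that of Col18a1 without knockdown replicate 1 (0.0958). The log2 fold change of Col6a3 ran from -0.23 without knockdown replicate 1 to -0.06 without knockdown replicate 2. Over all alternatives the adjusted p ran from 6.74e-06 to 0.431 for Col6a3 and from 0.0104 to 0.176 for Col18a1.

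The libraries labelled ect, set against the same 2 knockdown libraries, gave the following values for the same genes. Again 5 of 8 members tested were called, 1 higher and 4 lower, where 8.16% of 15031 genes tested were called (3.55% higher and 4.61% lower). Their median log2 fold change was -0.24, beside 0 over all genes tested. The log2 fold change was -0.35 for Col6a1 (SE 0.045, edgeR adjusted p = 8.37e-09), -0.33 for Col6a2 (SE 0.049, 3.14e-07), -0.16 for Col6a3 (SE 0.041, 0.00606) and -0.50 for Col4a5 (SE 0.14, 0.0146). Col18a1 was 1.30-fold higher (0.38, SE 0.082, edgeR adjusted p = 0.000529). Col4a1 (-0.06, edgeR adjusted p = 0.523), Col4a2 (-0.08, 0.377) and Col28a1 (-0.32, SE 0.32, 0.645) did not pass.

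Because both comparisons use the same knockdown libraries, a deviation of those 2 libraries moves them together, and the likeness of the 2 sets of values is not a separate result. The Col4a5 call with ect was lost with DESeq2 (adjusted p = 0.137), with all 10 libraries in 1 fit (0.0609), without knockdown replicate 2 (0.219) and without ect replicate 2 (0.103), within a range over the alternatives of 0.01 to 0.219. The Col6a3 call was lost without knockdown replicate 2 (-0.08, edgeR adjusted p = 0.284), without ect replicate 2 (-0.14, 0.0957) and with all 10 libraries in 1 fit (0.33), within a range of 1.37e-06 to 0.33. That last fit also ended the Col18a1 call (0.0544, range 3e-04 to 0.0544). Col6a1 and Col6a2 were called in both comparisons under all 13 alternatives run for each, with a highest adjusted p of 0.02 (Col6a1 with c30).

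The mutants were also compared with each other in MC38. No member passed the edgeR test in c30 against ect, where 0.299% of 15031 genes tested did. At an unadjusted p under 0.05 there was 1 member, Col4a1 (0.12, SE 0.051, edgeR unadjusted p = 0.0256, adjusted p = 0.477), beside 1310 of 15031 genes, and DESeq2 and limma-voom called 0 members. The values for the chains called against the knockdown were 0.05 for Col6a1 (SE 0.045), -0.03 for Col6a2 (SE 0.05), 0.01 for Col6a3 (SE 0.041), -0.14 for Col4a5 (SE 0.16) and -0.08 for Col18a1 (SE 0.082). These values were of the order of their SE, which does not show that the mutants act alike.

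**Figure D4:**
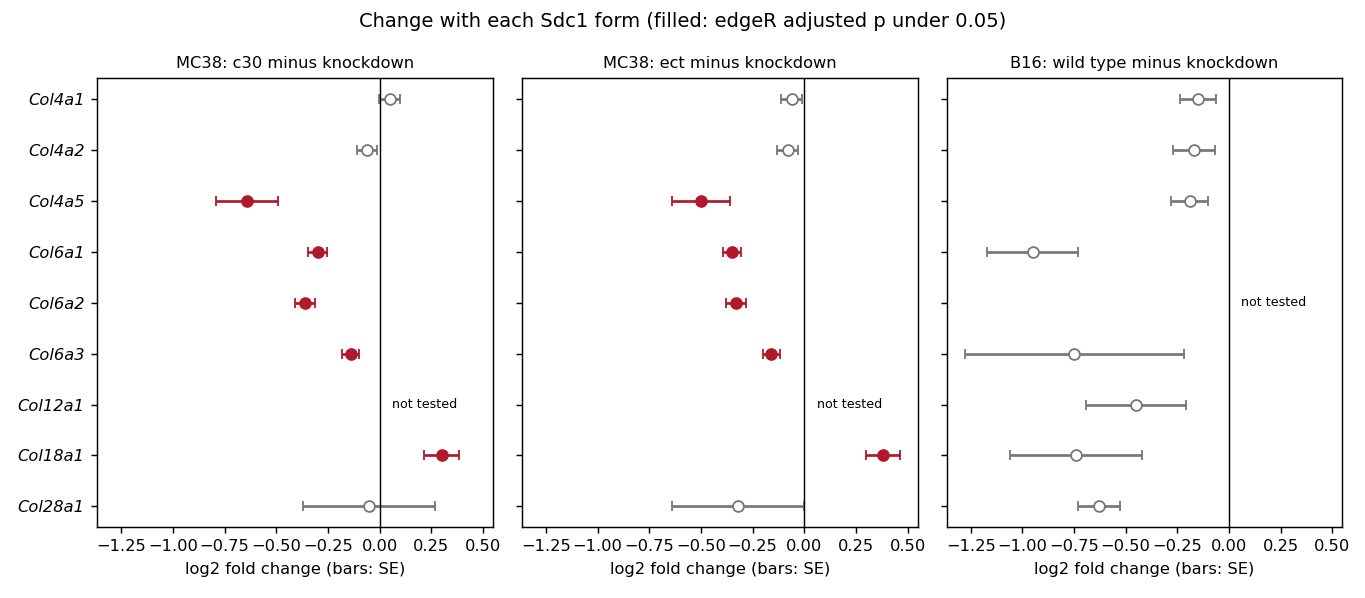
log2 fold change of each of the 9 genes against the knockdown of its own line (horizontal axis; bars are the SE of the edgeR fit) for c30 and ect in MC38 and wild type in B16; filled points passed the edgeR test at an adjusted p under 0.05. In MC38 Col6a1, Col6a2, Col6a3 and Col4a5 lie left of 0 and Col18a1 right of it, and in B16 all 8 genes tested lie left of 0 with open points.

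Related genes in MC38 gave these counts, where 7.75% of all genes tested were called with c30 and 8.16% with ect. Of 8 fibrillar collagens tested, 4 were lower with c30 and 6 lower with ect, and none was higher. The fibrillar sum was 762 and 796 CPM in the knockdown against 494 to 517 CPM in the 4 other MC38 libraries. Col3a1 (-0.74 with c30, -0.71 with ect), Col1a2 (-0.69, -0.53), Col5a1 (-0.52, -0.48) and Col5a2 (-0.47 with c30) were among them (largest edgeR adjusted p = 2.65e-06, for Col5a2 with c30). Col1a1 was lower with ect (-1.04, edgeR adjusted p = 1.08e-08) and was the fibrillar gene that passed between c30 and ect (0.83, adjusted p = 0.000181), though not without c30 replicate 2 (0.71, adjusted p = 0.0943). The median log2 fold change of the fibrillar list was -0.44 with c30 and -0.51 with ect, beside -0.10 and -0.24 for the 8 nonfibrillar members tested.

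Of 28 biosynthesis genes tested, 8 were lower with c30 and 8 with ect, and none was higher. They included Serpinh1, the collagen chaperone HSP47 (-0.24 and -0.29), the lysyl hydroxylase gene Plod1 (-0.33 and -0.30) and the prolyl hydroxylase subunit P4ha1 (-0.26 and -0.32). Loxl4 was lower with c30 (-0.26) and Plod2 with ect (-0.38). All of these passed the edgeR test (largest adjusted p = 0.0014, for P4ha1 with c30). The P4ha1 call with c30 was lost without c30 replicate 1 (-0.25). With all 10 libraries in 1 edgeR fit, the c30 calls of Serpinh1 (adjusted p = 0.101), Loxl4 (0.0733) and P4ha1 (0.074) were lost. That fit also ended the Plod1 call with ect (0.0591). The other calls named in this paragraph held under all 13 alternatives.

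Of 16 basement membrane genes tested, 1 was higher and 2 were lower with c30, and 2 were higher and 2 lower with ect. Sparc, which encodes a collagen-binding protein, was lower (-0.25 with c30, -0.17 with ect). Tinagl1 (0.16, 0.17) and Agrn, the heparan sulphate proteoglycan agrin (0.19 with ect), were higher (largest edgeR adjusted p = 0.0362, for Tinagl1 with c30). The Agrn call was lost in 10 of 13 alternatives, and that of Tinagl1 in 7 with c30 and 5 with ect. That of Sparc with ect was lost without ect replicate 1 (-0.14, edgeR adjusted p = 0.0739) and with all 10 libraries in 1 fit (0.185). Of 8 receptor genes tested, 1 was lower with c30 and 3 with ect. Ddr2, a receptor for fibrillar collagen (-0.20, -0.13), the collagen uptake receptor gene Mrc2 (-0.19 with ect) and Cspg4 (-0.28 with ect) passed (largest edgeR adjusted p = 0.0476, for Ddr2 with ect). With ect the Ddr2 call was lost in 8 of 13 alternatives, that of Mrc2 in 4 and that of Cspg4 in 3, and DESeq2 called 1 of the 8. Cspg4 ran from -0.41 to -0.15 when 1 library was left out, the latter without knockdown replicate 2 (edgeR adjusted p = 0.0804).

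Of 6 other nonfibrillar collagens tested in MC38, none passed with c30 by edgeR, although 2 had an unadjusted p under 0.05 (Col7a1, 0.14, adjusted p = 0.0666; Col16a1, -0.12, adjusted p = 0.166), and DESeq2 and limma-voom called 0. With ect, Col9a3 was lower (-0.60, SE 0.17, edgeR adjusted p = 0.0169). This call was lost in 4 of 12 alternatives, with -0.43 (adjusted p = 0.305) without ect replicate 2, -0.59 (0.0925) and -0.61 (0.0774) without knockdown replicates 1 and 2, and 0.0965 with all 10 libraries in 1 fit. DESeq2 gave Col9a3 no adjusted p and called 0 of the 6. The others were Col8a1, Col17a1 and Col20a1. Col7a1 and Col8a1 were as abundant as several members, at 242 to 277 CPM and 97.3 to 106 CPM in the MC38 libraries.

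Of 4 stromal markers tested in MC38, 2 were lower with c30 and with ect, Pdgfra and Pdgfrb. Together the 7 markers came to 142 and 151 CPM in the knockdown, 105 and 112 CPM with c30 and 107 and 100.3 CPM in the ect libraries. The knockdown did not overlap the rest, where 47.8% (c30) and 48.4% (ect) of single genes tested did not overlap it in either direction. Pdgfra (-0.46 with c30, -0.57 with ect) and Pdgfrb (-0.41, -0.46) passed the edgeR test (largest adjusted p = 0.000258), and they supplied most of the sum. Dcn did not pass and overlapped between the groups, at 2.47 and 1.73 CPM in the knockdown and 1.4 to 2.46 CPM in the other MC38 libraries, and Thy1 and Lum were at 0 or at most 0.145 CPM. Of 3 epithelial markers tested, Cdh1 was lower with both (-0.73 and -1.13, largest edgeR adjusted p = 0.00231). The 2 others were not called, and the median log2 fold change of the 3 was 0.42 with c30 and 0.02 with ect. With ect, DESeq2 called 0 of the 3. The part of these genes in the collagen differences was not tested.

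In B16, the libraries labelled wild-type Sdc1 were set against the knockdown. All 8 members tested had a lower fitted level with wild type, and none passed the edgeR test, where 0% of 14336 genes tested did. For 8 of the 9 members both wild-type libraries lay below both knockdown libraries, beside 35.1% of genes tested whose groups did not overlap in either direction. At an unadjusted p under 0.05 there were 3 members and 791 genes by edgeR, while DESeq2 called 1 member and 11 genes and limma-voom called 0 of either. The median log2 fold change of the members was -0.54, beside 0 over all genes tested.

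Col28a1 had the smallest p-value, with a log2 fold change of -0.63 (SE 0.10, edgeR adjusted p = 0.188), or a level 1.55-fold higher in the knockdown. It passed in 6 of 11 alternatives, DESeq2 (adjusted p = 0.00936) among them. By edgeR it passed with no filter on low counts (adjusted p = 9.65e-05), all 10 libraries in 1 fit (0.00836) and the replicate block (0.00833). It also passed without wild-type replicate 1 (-0.58) or 2 (-0.69), where the spread came from the 2 knockdown libraries only. It did not pass with RLE, a filter at 5 CPM, limma-voom or when either knockdown library was left out. Over the 11 alternatives its adjusted p ran from 1.17e-08 to 0.432 and its log2 fold change from -0.69 to -0.58. Col6a1 was at -0.95 (SE 0.22, edgeR adjusted p = 0.584) on 56 and 54 counts against 124 and 88. It passed in 3 of 11 alternatives and not in the 8 others. The 3 were without wild-type replicate 1 (-0.96), without wild-type replicate 2 (-0.94) and all 10 libraries in 1 fit (edgeR adjusted p = 0.00486).

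Col18a1 was at -0.74 (SE 0.32, edgeR adjusted p = 0.89), Col6a3 at -0.75 (SE 0.53, 0.909) and Col12a1 at -0.45 (SE 0.24, 0.901). The collagen IV chains were at -0.15 (SE 0.087) for Col4a1, -0.17 (SE 0.10) for Col4a2 and -0.19 (SE 0.09) for Col4a5, all with edgeR adjusted p of at least 0.891. Without wild-type replicate 1 the edgeR fit called 1295 genes and without wild-type replicate 2 it called 326, so the count in B16 rests on both of these libraries. None of the genes tested in the other collagen, basement membrane, biosynthesis and receptor lists passed edgeR in B16, and DESeq2 and limma-voom called 0 of them. At an unadjusted p under 0.05 there were 1 other nonfibrillar collagen (Col9a3, -0.53), 3 fibrillar, 4 basement membrane, 3 biosynthesis and 1 receptor gene by edgeR. The other nonfibrillar collagens tested in B16 were Col4a4, Col7a1, Col8a1, Col9a1, Col9a2, Col10a1, Col15a1, Col16a1 and Col20a1, with log2 fold changes from -0.56 for Col9a1 to 0.57 for Col4a4.

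The difference between the effect in B16 and that in MC38 was tested in 1 edgeR fit of all 10 libraries, although wild type and the mutants are different forms. For Col18a1 the wild-type effect minus the ect effect was -1.12 (SE 0.26, adjusted p = 0.0477), where 0.486% of 16877 genes tested passed (0.284% higher and 0.201% lower) and no other member did. The call was lost in 11 of 16 alternatives, RLE, limma-voom and the replicate block among them, over which the adjusted p ran from 0.0249 to 0.357. Minus the c30 effect it was -1.04 (SE 0.26, edgeR adjusted p = 0.0981), and no member passed where 0.284% of genes did. At an unadjusted p under 0.05 there were 4 members for c30 by edgeR, beside 1748 of 16877 genes, and for the members DESeq2 and limma-voom called 0. The values for Col6a1 were -0.65 (SE 0.17, edgeR adjusted p = 0.0981) with c30 and -0.60 (SE 0.17, 0.124) with ect. Those for Col4a5 were 0.46 (SE 0.18, 0.339) and 0.31 (SE 0.17, 0.536).

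The genes whose pattern over the 10 libraries was most like that of 4 members were taken by Pearson r of log2 CPM among about 10859 genes with a mean of at least 5 CPM. With 2 lines this r follows mainly the difference between them, so it is a description with no p. For Col4a1 the nearest were Dvl2 (r = 0.9987), Syne3, Vasn, Zmiz1 and Efemp2, and its partner Col4a2 came 8th (0.9976). For Col6a1 they were Fam160a1 (0.9994), Vasn, Plcd3, Gm15726 and Pld2, with Col4a2, Col6a3, Col4a1 and Col6a2 in places 38, 47, 125 and 170. For Col18a1 they were Hdac7 (0.9992), Tarsl2, Shb and Gm49774, and for Col12a1 Ifi207 (0.9961), Antxr2, AC119228.1, Trim26 and Magi3. Col4a1 and Vasn shared the high level in MC38, while Col12a1 and its nearest genes shared the high level in B16.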

How the data were processed

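Messenger RNA libraries of 2 mouse lines, 10 in all, were read as pairs by Illumina sequencing, per the labels' protocols. The deposited table holds raw counts per gene, and the submitters' processing notes name build GRCm39 and, in no stated order, featureCounts, HTSeq, DESeq2, Trimmomatic and HISAT2 2.0.5. The annotation and the strand setting are not given in the sources used here. Of 60676 rows, 57180 carry Ensembl identifiers and 3496 are XLOC loci, and 51884 received a symbol.

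The main test was the 2-sided quasi-likelihood test of edgeR 4.0.16 (R 4.3.3), with filterByExpr, TMM and robust fitting, and Benjamini-Hochberg adjustment over all genes tested and calls at an adjusted p under 0.05. MC38 comparisons shared 6 libraries, B16 used 4, and comparisons across lines used 10. Library values are CPM of the library total, and TMM scaling multiplied them by 0.982 to 1.03. Interval levels are 95%: ratios of counts have exact binomial intervals. The tests were also run on simulated counts with the same spread for every gene and group. The real replicates were unequal in spread, so nothing is drawn from that run. DESeq2 1.42.0, limma-voom (limma 3.58.1), RLE, other filters, a replicate block, other library sets and leaving out each library were the alternatives.

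The members and gene lists were chosen with earlier results of these data known. Named were all 9 members, each other nonfibrillar collagen tested, up to 4 called genes per related list and comparison by smallest adjusted p, and 5 genes nearest in pattern. A few genes so chosen are not reported here. Cell type markers came from lists of 6 or 7 genes. Promoter stretches are from RefSeq on GRCm38.p6, and no other coordinates are printed because the counts use another build. Figures were drawn with matplotlib 3.10.9.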

Additional observations from a re-analysis of the deposited data

Results flagged for a closer look

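Col18a1 passed the edgeR test of the difference between effects. Wild type minus knockdown in B16, less ect minus knockdown in MC38, was -1.12 on the log2 scale (SE 0.26, edgeR adjusted p = 0.0477). Wild type was present only in B16 and ect only in MC38, so line and Sdc1 form cannot be told apart. The level was 2.90 and 3.74 CPM in the B16 knockdown against 1.9 and 2 CPM with wild type, and 42.0 and 43.4 CPM in the MC38 knockdown against 54.6 and 55.9 CPM with ect. The call was lost in 11 of 16 alternatives, over which the log2 value ran from -1.29 to -0.94 and the adjusted p from 0.0249 to 0.357. It rests in B16 on 24 to 43 counts a library.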

How the results depend on the processing

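The line difference held for all 9 members under all 17 alternatives. In MC38 the calls of Col6a1 and Col6a2 held under all 13 for each mutant, and those of Col4a5, Col6a3 and Col18a1 did not; the cause was not tested. With c30 the number of members called, 5, was 3 with DESeq2, 3 with all 10 libraries in 1 fit and 2 to 5 when 1 library was left out. With ect it was 2 with all 10 libraries and 3 to 5 when 1 library was left out. In B16 the 0 members became 1 with no filter, 1 with DESeq2, 2 with all 10 libraries and 0 to 2 when 1 library was left out. For wild type minus c30, 0 became 1 with no filter and 0 to 3 when 1 was left out. For wild type minus ect, 1 became 0 with RLE, 0 with limma-voom and 0 to 2 when 1 was left out. Where a library was left out, the lone library of its group was assumed to vary like the others.

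With the replicate block, the count was 1 in B16 (Col28a1, -0.63, adjusted p = 0.00833) and 0 for wild type minus ect (Col18a1, -1.12, adjusted p = 0.0651), with no other member call changed. The numbers did not pair the libraries (correlations of same-numbered deviations from -0.05 to 0.02).

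Directions turned only in values that were not called and were of the order of their SE or smaller. The farthest from 0 were Col28a1 for c30 against ect (0.26, SE 0.33) and Col12a1 for wild type minus c30 (-0.21, SE 0.72). With limma-voom, Col6a2 was 0.09 for wild type minus c30 and 0.06 minus ect. When 1 library was left out, ranges were -0.01 to 0.11 for Col4a1, -0.13 to 0.01 for Col4a2 and -0.46 to 0.26 for Col28a1 with c30. For c30 against ect they were -0.03 to 0.07 for Col4a2, -0.45 to 0.11 for Col4a5, -0.02 to 0.05 for Col6a3 and -0.14 to 0.58 for Col28a1. For wild type minus c30 they were -0.64 to 0.86 for Col6a2 and -1.05 to 0.52 for Col12a1, and minus ect -0.67 to 0.83 for Col6a2.

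Over all genes, calls with c30 (1165) fell to 513 with DESeq2, 254 with all 10 libraries and as few as 464 without c30 replicate 1, and those with ect (1227) to 600, 249 and 776 (without ect replicate 2). For c30 against ect, 45 became 19, 8 and 18 to 97. In B16, 0 became 42 with no filter, 11 with DESeq2, 15 with the block, 27 with all 10 libraries and up to 1295 without wild-type replicate 1. For wild type minus c30, 48 became 159 with no filter, 77 with DESeq2, 13 with limma-voom and 13 to 1096 when 1 library was left out. For wild type minus ect, 82 became 189 with no filter, 23 with limma-voom and 13 to 1170. With all 10 libraries in 1 fit the share of higher genes among those called fell from 42.6% to 25.2% with c30 and from 43.5% to 26.1% with ect. DESeq2 gave no adjusted p for 8 fold changes, which are left out. Depth limits Col6a2 in B16 and Col12a1 in MC38.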
